A study of Homo sapiens with 12 samples.

Results

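The genotype by stage interaction asks, gene by gene, whether the difference between TET1 knockout and control cells was itself different before and after the cells left the stem cell state. It was computed over all 12 libraries of the series, 12 of 12, by joining the hESC and the iMeLC count tables on gene symbol and fitting 4 group means. The contrast was CDKO minus CTRL in iMeLC, less CDKO minus CTRL in hESC, so a positive value marks a gene whose knockout difference was more upward in iMeLC. Of the 36762 gene symbols in each table, 20262 passed the filter on low counts and were tested, and a gene was called at a Benjamini-Hochberg adjusted p under 0.05 in the quasi-likelihood test of edgeR.

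All libraries came from UCLA1, a human embryonic stem cell line (hESC). iMeLC are incipient mesoderm-like cells, the short intermediate that hESC pass through on the way to primordial germ cell-like cells. The CTRL hESC and CTRL iMeLC groups were the control lines CTRL1101, CTRL1106 and CTRL1109, and the CDKO hESC and CDKO iMeLC groups were the lines CDKO1102, CDKO1105 and CDKO1312, whose TET1 catalytic domain had been knocked out, with 3 libraries a group. Each line is listed at both stages, but the hESC columns are named WT1 to WT3 and KO1 to KO3, with no line. WT was taken for CTRL and KO for CDKO, and every interaction rests on that reading. These columns are called CTRL hESC 1 to 3 and CDKO hESC 1 to 3 here and were tied to no line. Nothing says that the libraries were grown separately, so p-values measure the spread between these libraries, which may be partly technical. Stage coincided with the table and with depth, and these cannot be told apart in a stage change, whereas an offset shared by control and knockout libraries of a stage drops out of the interaction. Depth was not shared in this way in iMeLC, where every knockout library held fewer counts than every control, so it does not drop out.

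TET1 oxidises 5-methylcytosine in DNA, the first step of active demethylation, and it is abundant in pluripotent cells. Its catalytic domain lies at the carboxyl end of the protein and carries out the oxidation, while the rest of the protein also contacts chromatin partners. DNA methylation at CpG-rich promoters is associated with silent genes, and removal of methyl marks around genes of later fates is among the events studied when stem cells become competent for the germ line.

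For genes whose CpG context a reader may want to see, bases upstream of the annotated transcripts are printed from RefSeq on GRCh38.p14, 5' to 3' on the gene's strand, with each CG in capitals. ABCA1 was the called gene that had an entry in the sequence table, and NAP1L5 and CDX4 were among the genes with the most negative interactions. The windows are chr9:104928238-104928405 (minus strand, 168 bases, 11 CG), chr4:88697830-88698079 (minus strand, 250 bases, 16 CG) and chrX:73446803-73447052 (plus strand, 250 bases, 3 CG).
ABCA1: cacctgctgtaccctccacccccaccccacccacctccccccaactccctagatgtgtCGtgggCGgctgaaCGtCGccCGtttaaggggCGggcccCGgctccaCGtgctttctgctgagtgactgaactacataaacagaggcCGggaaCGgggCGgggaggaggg
NAP1L5: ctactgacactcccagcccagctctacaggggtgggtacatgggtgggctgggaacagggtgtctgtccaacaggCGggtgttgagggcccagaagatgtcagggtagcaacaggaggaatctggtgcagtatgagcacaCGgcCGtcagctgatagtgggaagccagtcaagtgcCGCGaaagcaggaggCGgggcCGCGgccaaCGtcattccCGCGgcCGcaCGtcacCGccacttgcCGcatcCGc
CDX4: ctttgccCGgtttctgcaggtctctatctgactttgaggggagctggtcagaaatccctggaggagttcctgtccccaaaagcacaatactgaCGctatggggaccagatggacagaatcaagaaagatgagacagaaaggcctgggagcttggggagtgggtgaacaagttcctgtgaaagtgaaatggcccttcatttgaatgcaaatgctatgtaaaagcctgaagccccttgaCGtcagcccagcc
The dinucleotide CG reads the same on both strands. It occurred at least once in 88.9% of the 35116 RefSeq promoters over a window of 168 bases, with a median of 6, and in 93.9% over 250 bases, with a median of 11. By that count ABCA1 and NAP1L5 lay above the median and CDX4 below it. No methylation was measured in these libraries.

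The hESC libraries held 12517593 to 18855099 counts and the iMeLC libraries 52121702 to 109479071. In iMeLC depth followed genotype. CTRL1101, CTRL1106 and CTRL1109 held 97345795, 91226186 and 109479071 counts, and CDKO1102, CDKO1105 and CDKO1312 held 52121702, 89723454 and 79568371. Calls with iMeLC counts thinned to hESC depth are given further below. The hESC markers POU5F1, SOX2, NANOG, LIN28A, TDGF1 and DNMT3B summed to 7176 to 8811 CPM (read counts scaled to library size) in hESC and 4272 to 5199 in iMeLC. The primitive streak markers TBXT, EOMES, MIXL1, SP5 and NODAL summed to 22.3 to 181 CPM in hESC and 323 to 1144 in iMeLC, so the stage labels matched their markers. CDKO hESC 3 stood apart within hESC, with streak markers at 181 CPM against 59.6 and 87.0 in its group and 5 endoderm markers at 144 CPM against 10.98 and 14.5. CTRL hESC 1 also differed from its group, with these endoderm markers at 21.3 CPM against 5.71 and 7.39. Its 6 amnion or trophectoderm markers summed to 19.5 CPM against 6.27 and 7.57, and 24733 genes were detected in it against 27950 and 28108. CTRL1106 stood apart within iMeLC, at 323 CPM of streak markers against 826 and 969 in the other controls. The same endoderm markers reached 44.1 CPM in CTRL1101, 13.2 in CTRL1106 and 123 in CTRL1109, against 211 in CDKO1102, 151 in CDKO1105 and 332 in CDKO1312, so every knockout line lay above every control, and the part of endoderm-like cells in the iMeLC differences was not tested. The number of genes called in the interaction is also given without CDKO hESC 3 and CTRL1106, while other counts are for 12 libraries unless stated. Markers of blood or endothelium summed to at most 1.22 CPM and neural markers to at most 5.33 CPM in any library.

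TET1 itself showed no interaction that passed the test. Its CPM was 290.4, 339 and 304 in CTRL hESC, 375, 396 and 335 in CDKO hESC, 288, 322 and 293 in CTRL iMeLC and 325, 356 and 304 in CDKO iMeLC. Transcripts of the gene were thus present at similar levels in all 4 groups, and the counts are of the whole gene, exons inside and outside the catalytic domain together, and do not check the knockout. The interaction of TET1 was -0.12 on the log2 scale (SE 0.13, adjusted p = 0.780). TET2 (0.17, SE 0.24, adjusted p = 0.838) and TET3 (0.00, SE 0.13, adjusted p = 0.9999), the related dioxygenases, did not pass either. Levels of TET2 averaged 15.4 ± 0.524 CPM in CTRL hESC, 18.7 ± 0.557 in CDKO hESC, 9.03 ± 2.48 in CTRL iMeLC and 12.4 ± 1.63 in CDKO iMeLC (SD, n = 3).

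Across the transcriptome, 4 genes were called, 0.0197% of those tested: TRIM4, ABCA1 and MTRNR2L12 were higher (0.0148%) and PKP3 was lower (0.00494%). In the same fit, the knockout difference was called for 72 genes in hESC (0.355%), 23 higher (0.114%) and 49 lower (0.242%), and for 1310 genes in iMeLC (6.47%), 606 higher (2.99%) and 704 lower (3.47%). A difference called in iMeLC and not in hESC is not by that shown to differ between the stages, and the interaction is the test of it. At an unadjusted p under 0.05 the interaction held 2275 genes (11.2%), 1254 higher (6.19%) and 1021 lower (5.04%). These percentages are the background for the counts below that use all 12 libraries. The median standard error of an interaction was 0.302 on the log2 scale, against a median absolute interaction of 0.267. Without CDKO hESC 3 and CTRL1106, 3 genes were called, 2 higher and 1 lower, and TRIM4 was the called gene they shared with the fit over 12 libraries. The count moved far more with CTRL1101 and with the tool. Without CTRL1101, 439 of 18813 genes were called (2.33%), 261 higher (1.39%) and 178 lower (0.946%), and DESeq2 on all 12 libraries called 217 (1.07%), 160 higher (0.79%) and 57 lower (0.281%). Unadjusted p was under 0.05 for 3743 of the 18813 genes without CTRL1101. List counts without that library thus have a background above 11.2%, and a rise in them is not by itself particular to a list. Without CTRL hESC 1, CTRL hESC 3, CTRL1109, CDKO1102 or CDKO1312, the called gene was TRIM4 alone, and without CDKO hESC 2, CTRL1106 or CDKO1105 there were 2.

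TRIM4, an E3 ubiquitin ligase of the tripartite motif family, had the largest called interaction. Its CPM was 6.98, 10.1 and 7.61 in CTRL hESC and 8.67, 5.30 and 5.94 in CDKO hESC. In iMeLC it was 0.0468, 0.0232 and 0.0391 in CTRL1101, CTRL1106 and CTRL1109, which are 4, 2 and 4 counts, and 6.70, 8.64 and 7.77 in CDKO1102, CDKO1105 and CDKO1312, which are 301, 656 and 537 counts. The 3 control iMeLC libraries thus held next to no TRIM4, and the other 9 libraries lay between 5.30 and 10.1 CPM. The knockout difference was -0.32 in hESC (SE 0.23, adjusted p = 0.673) and 7.62 in iMeLC (SE 0.33, adjusted p = 1.88e-07), and the interaction was 7.94 (SE 0.40, adjusted p = 1.23e-06). The iMeLC and interaction values rest on 4, 2 and 4 control counts, so their size is less certain than the SE shows. Seen by genotype, TRIM4 had a stage change from hESC to iMeLC of -7.72 on the log2 scale in control lines and of 0.22 in knockout lines (SE 0.22, adjusted p = 0.404). TRIM4 lies on chromosome 7 at 99876958 to 99919600 on the minus strand (GRCh38, GENCODE 29), and its exons overlap those of OR2AE1 on the same strand. Of the 37 tested genes within 500 kb, 3 had an unadjusted p under 0.05, and none was called (smallest adjusted p = 0.366).

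ABCA1 exports cholesterol and phospholipid from the cell to apolipoproteins. Its CPM was 38.2, 26.9 and 51.6 in CTRL hESC, 22.1, 19.7 and 20.03 in CDKO hESC, 11.8, 12.8 and 11.8 in CTRL iMeLC and 33.2, 23.5 and 44.6 in CDKO iMeLC. Knockout libraries were all below controls in hESC and all above them in iMeLC. The knockout difference was -0.92 in hESC (SE 0.23, adjusted p = 0.143) and 1.48 in iMeLC (SE 0.23, adjusted p = 0.00629), which gave an interaction of 2.40 (SE 0.33, adjusted p = 0.0381), or 5.26-fold. The stage change was -1.68 on the log2 scale in control lines and 0.71 in knockout lines. The gene spans 104781002 to 104928237 on the minus strand of chromosome 9. With 1 library left out, the interaction ran from 2.12 to 2.60 and its adjusted p from 0.00803 to 0.185, under the threshold without CTRL hESC 2, CTRL1101 or CDKO1105 and above it without any of the other 9.

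MTRNR2L12 is a nuclear copy of the mitochondrial 16S ribosomal RNA gene that could encode a humanin-like peptide. It had 88.1, 124 and 101 CPM in CTRL hESC, 40.3, 76.3 and 59.3 in CDKO hESC, 42.0, 40.7 and 39.0 in CTRL iMeLC and 93.5, 117 and 81.3 in CDKO iMeLC. The groups did not overlap within either stage, and the direction of the difference was opposite in the 2 stages. The knockout difference was -0.83 in hESC (SE 0.20, adjusted p = 0.127) and 1.26 in iMeLC (SE 0.20, adjusted p = 0.00639), and the interaction was 2.09 (SE 0.28, adjusted p = 0.0381). The gene lies at 96617188 to 96618236 on the minus strand of chromosome 3. It shares sequence with its copies and with mitochondrial RNA, so reads may have been split between them. Leaving out 1 library gave 1.89 to 2.33, and the adjusted p (0.00734 to 0.142) stayed under the threshold without CDKO hESC 1, CDKO hESC 2 or CTRL1101 and passed above it without any of the other 9.

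PKP3, a plakophilin that anchors desmosomes in epithelial cells, was the gene called lower. Its CPM was 10.4, 13.4 and 9.91 in CTRL hESC and 4.62, 3.89 and 4.82 in CDKO hESC. In iMeLC it was 18.4, 24.3 and 18.3 in control and 2.32, 2.57 and 2.26 in knockout lines. PKP3 was thus lower in every knockout library at both stages, and the gap was wider in iMeLC. The knockout difference was -1.34 in hESC (SE 0.18, adjusted p = 0.0108) and -3.09 in iMeLC (SE 0.18, adjusted p = 2.95e-06), and the interaction was -1.75 (SE 0.24, adjusted p = 0.0381). The gene lies at 392614 to 404908 on the plus strand of chromosome 11. Of 51 tested genes within 500 kb, 6 had an unadjusted p under 0.05 and none other was called (smallest adjusted p = 0.292). Leaving out 1 library gave -1.89 to -1.62, and the adjusted p (0.0123 to 0.162) stayed under the threshold without CTRL hESC 2 or CTRL1101 and went above it without any of the other 10.

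**Figure D1:**
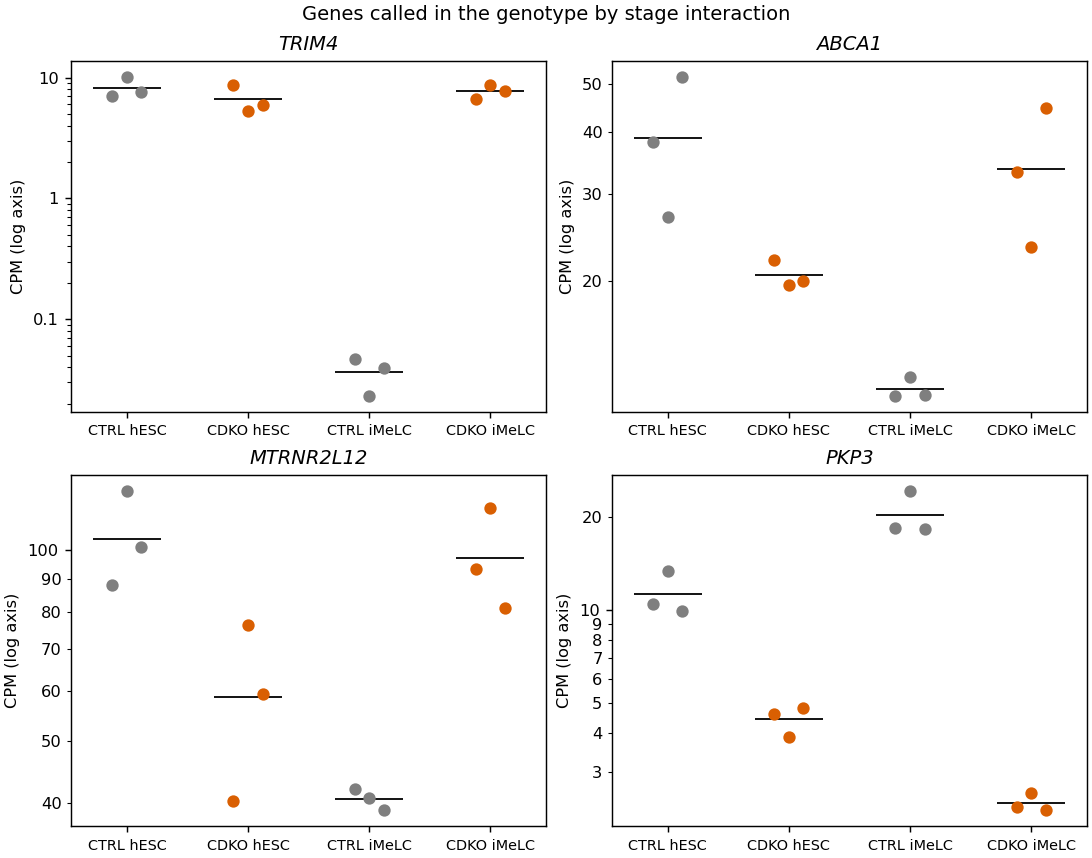
CPM on a log axis of the 4 genes called in the interaction, in each of 3 libraries a group (points) with the group mean (line); grey is control and orange is knockout. TRIM4 was at 0.0232 to 0.0468 CPM in the control iMeLC libraries alone, ABCA1 and MTRNR2L12 changed the order of the genotypes between stages, and PKP3 was lower in knockout libraries at both stages.

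Of the 4 called genes, 3 had knockout differences of opposite sign in the 2 stages and 1, PKP3, had the same sign with a larger difference in iMeLC. Among the 2275 genes at an unadjusted p under 0.05, 1654 had opposite signs (72.7%), 528 had the same sign and a larger difference in iMeLC, and 93 had the same sign and a larger difference in hESC. Over all genes tested, 37.9% had opposite signs. Selecting genes on the difference of both values favours opposite signs, so the higher share among the selected genes is no separate result. The spread of the knockout difference over genes was wider in iMeLC (SD 0.792) than in hESC (SD 0.562). Of the 606 genes called higher in knockout iMeLC, 466 (76.9%) were also above 0 in hESC, with a median of 0.15 there against 0.62 in iMeLC. Of the 704 called lower, 616 (87.5%) were also below 0 in hESC, with a median of -0.35 against -1.25. No gene was called in opposite directions in the 2 stages, and 15 were called higher and 21 lower in both.

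**Figure D2:**
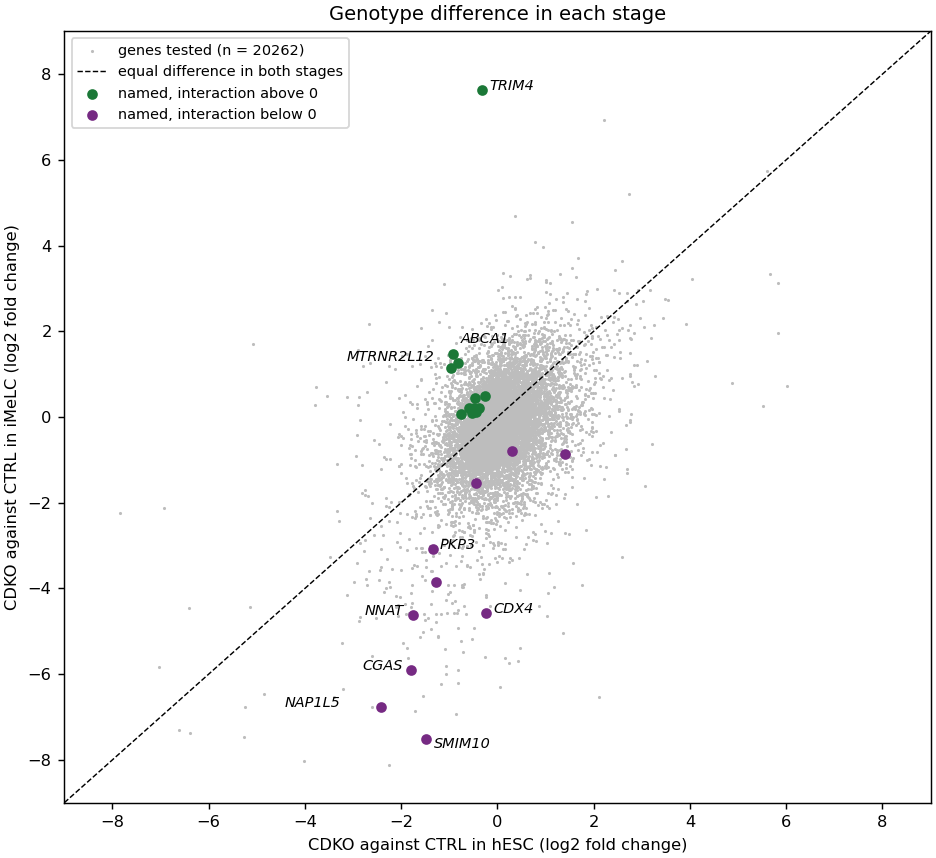
Knockout against control log2 fold change in hESC (x axis) and in iMeLC (y axis) for the 20262 genes tested, with 3 genes outside the axis range of 9; the dashed line marks an equal difference in both stages. The named genes with positive interactions (green) lie above the line and those with negative interactions (purple) below it, TRIM4 at -0.32 and 7.62.

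The next genes by p that did not pass are given as values. Positive interactions were led by PPP2CB, a catalytic subunit of protein phosphatase 2A (0.74, SE 0.12, adjusted p = 0.0917). Its CPM was 17.9, 19.2 and 18.6 in CTRL hESC, 15.5, 16.3 and 14.9 in CDKO hESC, 53.5, 50.4 and 54.1 in CTRL iMeLC and 78.2, 72.1 and 70.1 in CDKO iMeLC. It was lower in every knockout hESC library and higher in every knockout iMeLC library. Then came MRPL22, of the mitochondrial ribosome (0.91, SE 0.16), UQCC2, an assembly factor of respiratory complex III (0.80, SE 0.14), and CKS2, a partner of cyclin-dependent kinases (0.82, SE 0.16). The ribosomal protein genes RPL37A, RPL30, RPL23 and RPS12 and a further humanin-like copy, MTRNR2L8 (2.12, SE 0.39), made up the rest. Adjusted p of these 9 genes lay between 0.0917 and 0.177. UQCC2, RPL37A and RPL30 overlap a gene on the opposite strand, and RPL23 and MTRNR2L8 overlap small RNA genes on their own strand, so their counts may include reads of the partner.

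FAM120B, a coactivator of PPAR gamma, missed the threshold most narrowly of the genes lower in the interaction (-1.09, SE 0.16, adjusted p = 0.0507). It had 22.5, 24.6 and 24.8 CPM in CTRL hESC, 16.6, 18.7 and 17.6 in CDKO hESC, 37.0, 32.6 and 29.6 in CTRL iMeLC and 12.3, 10.3 and 11.8 in CDKO iMeLC. Knockout libraries were below controls at both stages, and further below in iMeLC. The imprinted gene NNAT, which encodes neuronatin and overlaps BLCAP on the opposite strand, averaged 17.5 ± 1.37 CPM in CTRL hESC, 5.24 ± 2.27 in CDKO hESC, 15.9 ± 2.12 in CTRL iMeLC and 0.642 ± 0.308 in CDKO iMeLC (SD, n = 3). Its interaction was -2.86 (SE 0.46, adjusted p = 0.0977). CDX4, an X-linked homeobox gene of the posterior body axis whose upstream bases are printed above, had 0.550, 0.808 and 1.06 CPM in CTRL hESC, 0.794, 0.876 and 0.410 in CDKO hESC, 1.80, 2.59 and 1.02 in CTRL iMeLC and 0.0445, 0.0527 and 0.116 in CDKO iMeLC. The genotypes overlapped in hESC and stood apart in iMeLC, and the interaction was -4.35 (SE 0.71, adjusted p = 0.0977).

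NAP1L5, an imprinted retrogene of the nucleosome assembly protein family, was nearly absent from knockout iMeLC. It had 152, 160 and 235 counts in CTRL1101, CTRL1106 and CTRL1109 and 0, 2 and 1 counts in CDKO1102, CDKO1105 and CDKO1312, a ratio of CPM of 126 (95% counting interval 43 to 615). In hESC it had 4.89, 3.64 and 5.18 CPM in control and 0.289, 1.17 and 1.02 in knockout libraries. SMIM10, a small integral membrane protein gene, likewise had 184, 182 and 296 counts in control iMeLC and 0, 0 and 2 in knockout iMeLC, a ratio of 230 (63.3 to 1900). Its hESC levels were 2.36, 2.43 and 2.34 CPM in control and 0.722, 1.61 and 0.205 in knockout libraries. Fitted interactions of -4.35 (NAP1L5) and -6.04 (SMIM10) rest on so few counts that they depend on the prior count, and neither passed (both adjusted p = 0.102).

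Other genes on the negative side were CXCL5, a neutrophil chemokine (-2.57, SE 0.46), and SYT1, a calcium sensor of synaptic vesicles (-1.08, SE 0.21). CGAS, the cytosolic DNA sensor (-4.10, SE 0.82), and TMEM215 (-2.26, SE 0.45) were also among them, and adjusted p of these 4 genes lay between 0.115 and 0.177. TMEM215 and SYT1 had means above control in knockout hESC and below it in knockout iMeLC. CXCL5 and CGAS had means below control at both stages. CGAS overlaps DDX43 on the opposite strand, and SYT1 overlaps AC090709.1 on the opposite strand.

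**Figure D3:**
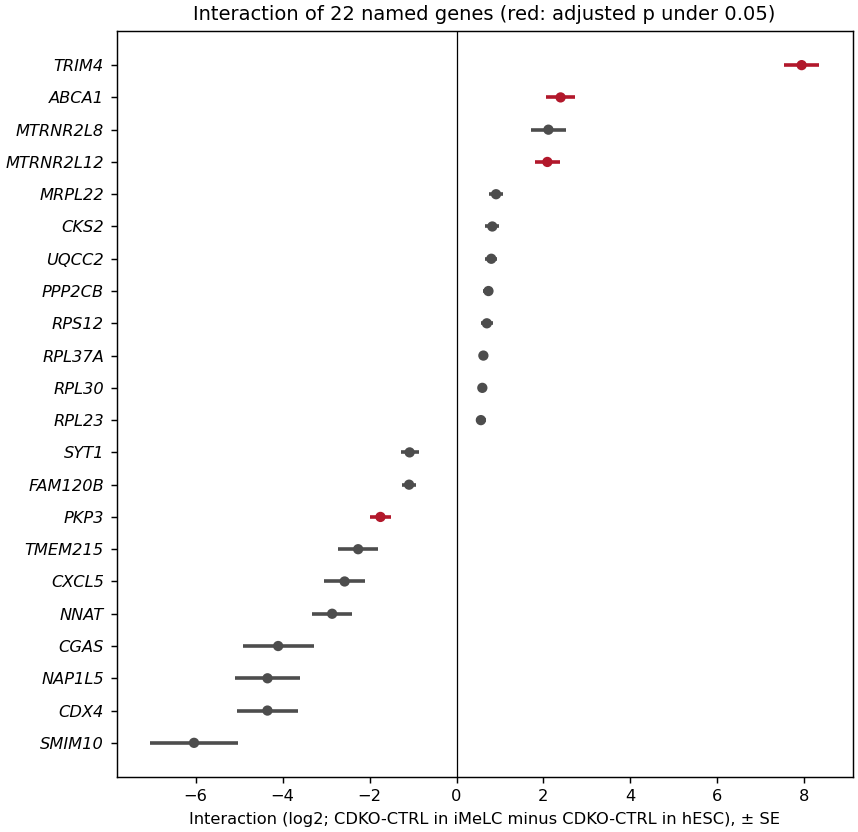
Interaction of 22 named genes beside the TET family, as log2 difference (points) with its standard error (bars); red marks the 4 genes with an adjusted p under 0.05. TRIM4 at 7.94 lies far above the other positive genes, which run from 0.56 to 2.40, and the 10 negative genes run from -6.04 (SMIM10) to -1.08 (SYT1). The bars of TRIM4 and SMIM10, which had very few counts in an iMeLC group, may be too narrow.

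Cytoplasmic ribosomal protein genes moved little each but mostly the same way. Of the 77 tested, 71 had an interaction above 0, with a median of 0.32 against -0.01 over all genes, and 48 had an unadjusted p under 0.05, all higher. By edgeR 0 of 77 were called, by limma-voom 0 and by DESeq2 21, all higher, where DESeq2 called 0.79% of all genes higher. Without CTRL1101 edgeR called 14, all higher. The median knockout difference was -0.24 in hESC, where 73 of 77 were below 0, and 0.07 in iMeLC, where 53 of 77 were above 0. Their mean log2 CPM was 7.80, 7.81 and 7.66 in CTRL hESC, 7.50, 7.54 and 7.44 in CDKO hESC, 8.88, 8.88 and 8.90 in CTRL iMeLC and 8.92, 8.97 and 8.96 in CDKO iMeLC. The knockout libraries lay below all controls in hESC and slightly above all controls in iMeLC. All 44 genes of the large subunit were above 0 (median 0.35), as were 25 of 31 of the small subunit (median 0.31). RPL37A, of the large subunit, went from 202 ± 8.53 CPM in CTRL hESC to 139.8 ± 9.42 in CDKO hESC, and from 528 ± 10.8 in CTRL iMeLC to 560.3 ± 40.5 in CDKO iMeLC (SD, n = 3), an interaction of 0.62 (SE 0.11, adjusted p = 0.115). The interactions of RPL30 (0.59), RPL23 (0.56) and RPS12 (0.70) were of like size. Ribosomal protein genes have many processed pseudogenes, and the handling of reads shared with them is not stated in these sources.

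The humanin-like MTRNR2L genes, nuclear copies of mitochondrial 16S ribosomal RNA, had a large positive median. Of 9 tested, 8 were above 0, the median was 1.74, and 7 had an unadjusted p under 0.05, all higher. MTRNR2L12 was called, and DESeq2 called 5, all higher, against 0.79% of all genes. MTRNR2L10 averaged 10.04 and 8.24 CPM in CTRL and CDKO hESC and 83.4 and 307 CPM in CTRL and CDKO iMeLC (2.15, SE 0.50, adjusted p = 0.208). MTRNR2L3 averaged 1.76 and 1.80 CPM in hESC and 4.80 and 16.5 CPM in iMeLC (1.74, SE 0.46, adjusted p = 0.248). The mean log2 CPM of the list was 1.36 to 1.90 in CTRL hESC, 0.841 to 1.50 in CDKO hESC, 2.38 to 2.71 in CTRL iMeLC and 3.65 to 4.45 in CDKO iMeLC. The genotypes overlapped in hESC and stood apart in iMeLC. These copies are not independent measurements, since reads may map to several of them. The 13 protein genes encoded in the mitochondrial genome, of which 12 were above 0, had a median of 0.17, and MT-ND3, a subunit of complex I, had the smallest p (0.72, SE 0.18, adjusted p = 0.219).

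Genes of mesenchymal transition and of matrix-producing cells were mostly above 0, while few passed even without adjustment. All 22 mesenchymal transition genes tested were above 0, with a median of 0.61, and 4 had an unadjusted p under 0.05 against a background of 6.19%. By edgeR and DESeq2, 0 were called. FN1, which encodes fibronectin, averaged 123 and 145 CPM in CTRL and CDKO hESC and 539 and 986 CPM in CTRL and CDKO iMeLC (0.64, SE 0.28, adjusted p = 0.419). The integrin ITGAV (0.79), the membrane protease MMP14 (0.62) and the matrix protein TGFBI (1.13) had adjusted p of 0.358 to 0.411. Per library the list's mean log2 CPM was 2.90 to 3.74 in CTRL hESC, 3.58 to 3.67 in CDKO hESC, 5.66, 4.24 and 4.95 in CTRL1101, CTRL1106 and CTRL1109, and 6.18, 6.003 and 5.78 in the CDKO iMeLC lines. CTRL1106 was the lowest of the iMeLC libraries, and without it the median was 0.25, while it was 0.37 without CTRL hESC 1 and 1.02 without CTRL1101. The count at an unadjusted p under 0.05 was 1 or 2 without CTRL hESC 1, CDKO hESC 3, CTRL1106 or CDKO1102, 7 without CTRL hESC 3 and 13 without CTRL1101, where edgeR called 3. Fibroblast or feeder genes had a like pattern (16 of 19 above 0, median 0.52, 3 with an unadjusted p under 0.05), with FBN1, which encodes fibrillin, at 1.47 (SE 0.57, adjusted p = 0.379). Their median was 0.24 without CTRL hESC 1, 0.22 without CTRL1106 and 1.08 without CTRL1101. The count was 0 or 1 without CTRL hESC 1, CDKO hESC 2, CTRL1109 or CDKO1102 and 10 without CTRL1101, where edgeR called 5. The 8 fibroblast or feeder markers summed to 381 to 600 CPM in CTRL hESC, 454 to 600 in CDKO hESC, 518 to 1065 in CTRL iMeLC and 803 to 1090 in CDKO iMeLC. CTRL1101 was the control at 1065 CPM, within the range of the knockout lines, against 518 in CTRL1106 and 520 in CTRL1109. LUM was at 0 in CTRL hESC 3 and DCN in CDKO hESC 1. Fewer cells of a type and less RNA per cell cannot be told apart in bulk libraries, and the part of such cells in these values was not tested.

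Genes of the immediate early response, transcription factors and phosphatases switched on within minutes of a growth factor or stress signal, had a median of 0.37. Of 29 tested, 22 were above 0 and 8 had an unadjusted p under 0.05, all higher. By edgeR 0 and by DESeq2 1 were called, with DESeq2 calling 0.79% of all genes higher. The count of 8 was 13 higher and 2 lower without CTRL1101 and 3 to 5 without any of CTRL hESC 1 to 3, CDKO hESC 2, CDKO hESC 3, CTRL1106, CTRL1109 or CDKO1102. The median was 0.59 without CTRL1101, 0.25 without CTRL1106 and 0.17 without CDKO hESC 3 and CTRL1106 together. EGR1, a zinc finger factor downstream of ERK, averaged 25.1 and 18.99 CPM in CTRL and CDKO hESC and 12.2 and 29.5 CPM in CTRL and CDKO iMeLC (1.68, SE 0.35, adjusted p = 0.185). KLF6 (0.91), FOSB (1.83) and JUND (0.40), further transcription factors of the response, had adjusted p of 0.292 to 0.385. The list's mean log2 CPM was 3.69, 2.99 and 3.27 in CTRL1101, CTRL1106 and CTRL1109 and 3.99, 3.82 and 4.02 in the CDKO iMeLC lines, so the knockout lines lay above the controls in iMeLC. In hESC the control libraries lay at 3.35 to 3.49 and the knockout libraries at 3.59 to 3.69. Cell handling at harvest can move these genes, and its part was not tested.

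Clustered protocadherins, adhesion molecules whose alternative promoters are controlled by DNA methylation and CTCF, had a median interaction of -0.51. Of 53 tested, 41 were below 0, and 11 had an unadjusted p under 0.05, all lower, against a background of 5.04%. By edgeR 0, by limma-voom 0 and by DESeq2 1 were called, where DESeq2 called 0.281% of all genes lower. The count of 11 was 17 without CTRL1101 and 7 without CTRL1109. The beta cluster had 14 of 16 below 0 (median -0.65), the gamma cluster 17 of 22 (-0.58) and the alpha cluster 10 of 15 (-0.26). PCDHB3 averaged 10.3 and 10.4 CPM in CTRL and CDKO hESC and 9.77 and 3.56 CPM in CTRL and CDKO iMeLC (-1.48, SE 0.31, adjusted p = 0.194). PCDHGA4 (-1.47), PCDHA1 (-1.60) and PCDHGA8 (-0.93) had adjusted p of 0.309 to 0.337. The list's mean log2 CPM was 2.02 to 2.15 in CTRL hESC, 2.07 to 2.22 in CDKO hESC, 1.56, 1.62 and 2.01 in CTRL1101, CTRL1106 and CTRL1109 and 1.26 to 1.41 in CDKO iMeLC. The genotypes overlapped in hESC, and all knockout iMeLC libraries lay below the controls. Alpha and gamma transcripts share their last exons within a cluster, so their counts are not separate measurements.

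Genes of cytosolic nucleic acid sensing and interferon response had a median of -0.25. Of 29 tested, 20 were below 0 and 6 had an unadjusted p under 0.05, all lower. By edgeR 0 and by DESeq2 3 were called, all lower, against 0.281% of all genes by DESeq2. The median was -0.08 without CTRL1106, -0.13 without CTRL1109 and -0.15 without CDKO1102. CGAS had 7.86, 7.18 and 4.68 CPM in CTRL hESC, 2.02, 3.26 and 0.359 in CDKO hESC, 11.7, 11.2 and 8.31 in CTRL iMeLC and 0.0445, 0.290 and 0.145 in CDKO iMeLC. It was lower in every knockout library at both stages. OAS3, an oligoadenylate synthetase, averaged 5.67, 2.22, 2.32 and 0.128 CPM in CTRL then CDKO hESC and CTRL then CDKO iMeLC (-2.71, SE 0.55, adjusted p = 0.181). The antiviral GTPases MX2 (-4.17, SE 0.93) and MX1 (-1.30, SE 0.41) had adjusted p of 0.208 and 0.306. Other genes of the response, such as IRF3 (-0.14) and ISG15 (-0.19), were near 0 and were singled out after their values were seen. HLA class I and antigen processing genes had a median of -0.21, with 5 of 16 lower and 1 higher at an unadjusted p under 0.05. The 5 became 3 without CTRL hESC 1 or CDKO hESC 1, and the median was -0.12 without CTRL hESC 1 and -0.32 without CTRL hESC 3 or CTRL1101. HLA-C (-0.50, SE 0.16) and the peptide transporter TAP1 (-0.89, SE 0.32) had adjusted p of 0.311 and 0.357.

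piRNA and meiosis genes, silenced by promoter methylation in somatic cells, had a median of -0.93 over the 21 of 33 that passed the filter on low counts. A gene could pass through the group in which it was high, so this median is no measure of the list, and with a filter passed within each table it was -0.23. PIWIL2, an Argonaute protein of the piRNA pathway, averaged 5.81 and 1.68 CPM in CTRL and CDKO hESC and 6.78 and 0.396 CPM in CTRL and CDKO iMeLC (-2.32, SE 0.66, adjusted p = 0.280). TDRD1 averaged 1.40, 0.388, 0.755 and 0.0136 CPM in CTRL then CDKO hESC and CTRL then CDKO iMeLC (-3.52, SE 1.12, adjusted p = 0.309). Imprinted genes showed no common direction, with 19 of 35 above 0 and a median of 0.01. At an unadjusted p under 0.05, 5 were lower (14.3%, background 5.04%) and 3 higher (8.57%, background 6.19%). By edgeR 0 and by DESeq2 2 were called, both lower, where DESeq2 called 0.281% of all genes lower. NNAT and NAP1L5 were the imprinted genes with the smallest p, and CDKN1C, a cell cycle inhibitor expressed from the maternal allele, was at 0.999 (SE 0.33, adjusted p = 0.322). HOX genes (26 of 39 tested) had none called by edgeR or DESeq2 and none with an unadjusted p under 0.05, and their median of 0.38 turned to -0.83 with the filter within each table and ran from -0.01 without CTRL1106 to 1.35 without CTRL1101. At an unadjusted p under 0.05, 5 HOX genes were higher without CTRL1101 and 3 without CTRL hESC 1.

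**Figure D4:**
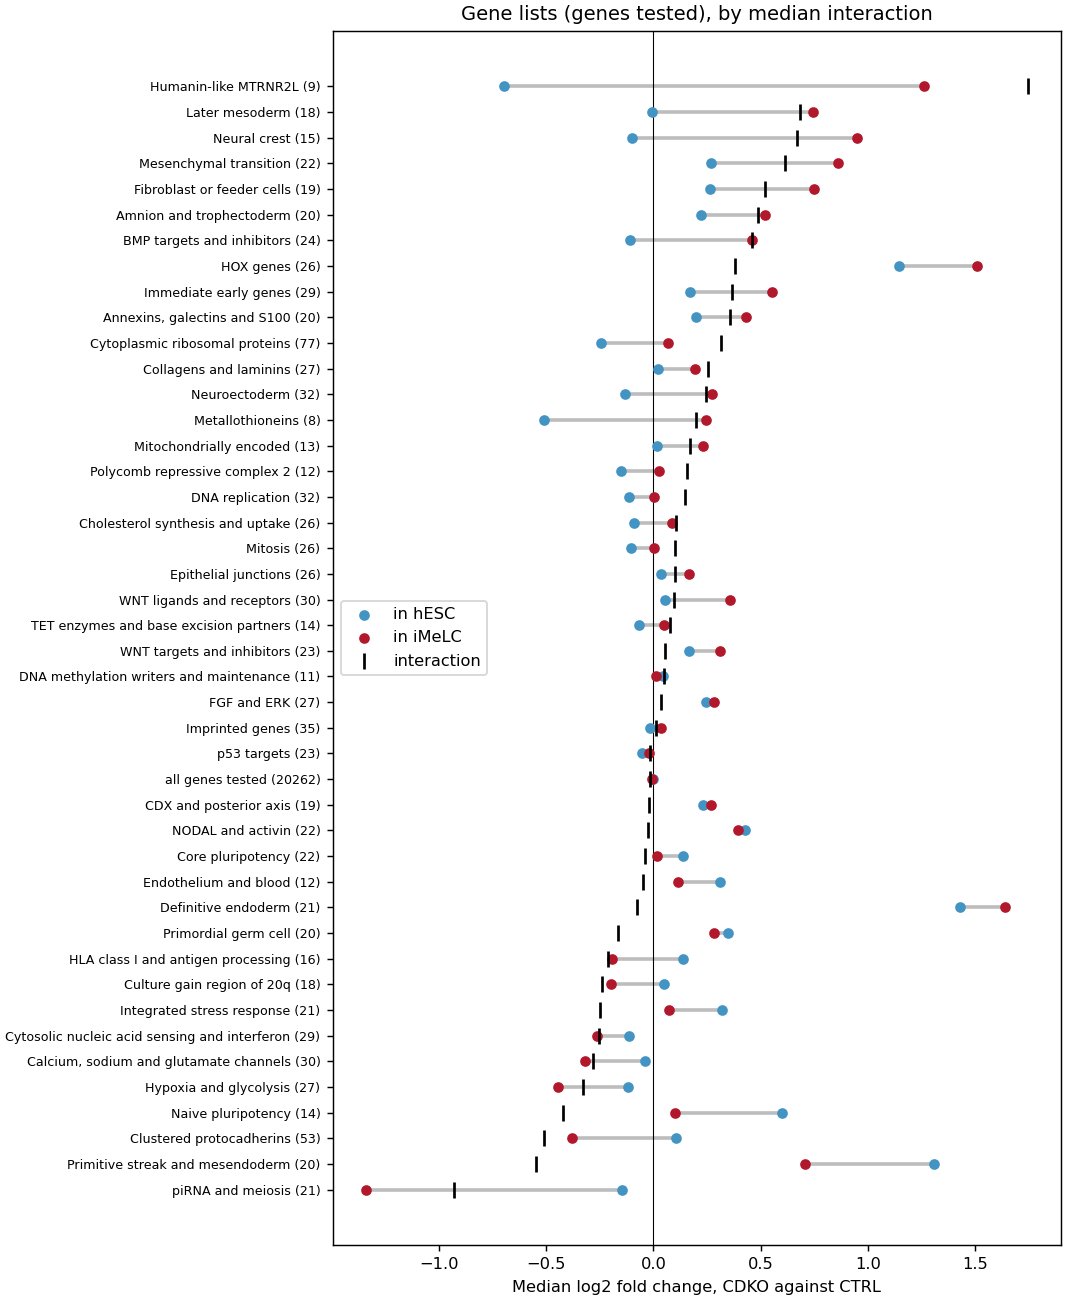
Median knockout against control log2 fold change of each gene list in hESC (blue) and in iMeLC (red), joined by a line, and the median interaction (black tick), ordered by the interaction; the number tested is in brackets. Humanin-like genes had a median interaction of 1.74 and protocadherins one of -0.51, with all genes tested at -0.01; that of piRNA and meiosis genes (-0.93) became -0.23 with the filter within each table.

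Primitive streak and mesendoderm genes, which define the iMeLC state, had a median of -0.55 with 16 of 20 below 0, and 1 had an unadjusted p under 0.05. By edgeR and DESeq2, 0 were called. The median rested on single libraries: it was 0.16 without CDKO hESC 3, 0.09 without CTRL1109, -0.36 without CTRL hESC 3, -0.88 without CTRL1106 and -1.59 without CTRL hESC 1. Without CTRL1106, 5 genes were lower at an unadjusted p under 0.05. SP5, a WNT target, averaged 3.64 and 11.2 CPM in CTRL and CDKO hESC and 189.8 and 171 CPM in CTRL and CDKO iMeLC (-1.83, SE 0.78, adjusted p = 0.413), and NODAL, TBXT and GSC had adjusted p of 0.631 to 0.732. Definitive endoderm genes had a median of -0.07, which became 1.47 without CDKO hESC 3. Of 21 tested, 2 were higher at an unadjusted p under 0.05, and 6 without CDKO hESC 3. By edgeR 0 and by DESeq2 2 were called, both higher, where DESeq2 called 0.79% of all genes higher. Core pluripotency genes had 10 of 22 above 0 and a median of -0.04. Within them OTX2, a homeobox factor of primed cells, averaged 44.0 and 45.9 CPM in CTRL and CDKO hESC and 34.1 and 79.1 CPM in CTRL and CDKO iMeLC (1.15, SE 0.33, adjusted p = 0.280). Primordial germ cell genes had a median of -0.16, with 1 higher and 1 lower of 20 at an unadjusted p under 0.05 and 0 called by edgeR or DESeq2.

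Partners of TET1 in DNA demethylation could not be set apart from the background. None of 14 TET and base excision repair genes was called by edgeR or DESeq2 or had an unadjusted p under 0.05 (median 0.08). Over all genes, 11.2% had an unadjusted p under 0.05 and DESeq2 called 1.07%. A list of 14 genes is too short for 0 to differ clearly from those shares. Among 11 writers of DNA methylation HELLS, a chromatin remodeller, had the smallest p (-0.25, SE 0.11, adjusted p = 0.421). Polycomb repressive complex 2 genes had a median of 0.16 with 3 of 12 higher at an unadjusted p under 0.05, RBBP4 (0.29), SUZ12 (0.34) and MTF2 (0.33), with adjusted p of 0.309 to 0.398. DESeq2 called 1 of the 12. Cholesterol genes included ABCA1, called higher, and had a median of 0.11, with 4 higher (8 without CTRL1101) and 1 lower of 26 at an unadjusted p under 0.05. That median was 0.04 without CDKO1312, 0.05 without CTRL1106, 0.06 without CTRL hESC 1 and 0.07 without CTRL1109. ABCG1, a second sterol exporter, averaged 0.959, 0.788, 0.399 and 0.987 CPM in CTRL then CDKO hESC and CTRL then CDKO iMeLC (1.60, SE 0.51, adjusted p = 0.309). Epithelial junction genes had a median of 0.10, and beside PKP3 the desmosome genes DSC2 (0.34) and JUP (0.36) were above 0, with adjusted p of 0.438 and 0.534.

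**Figure D5:**
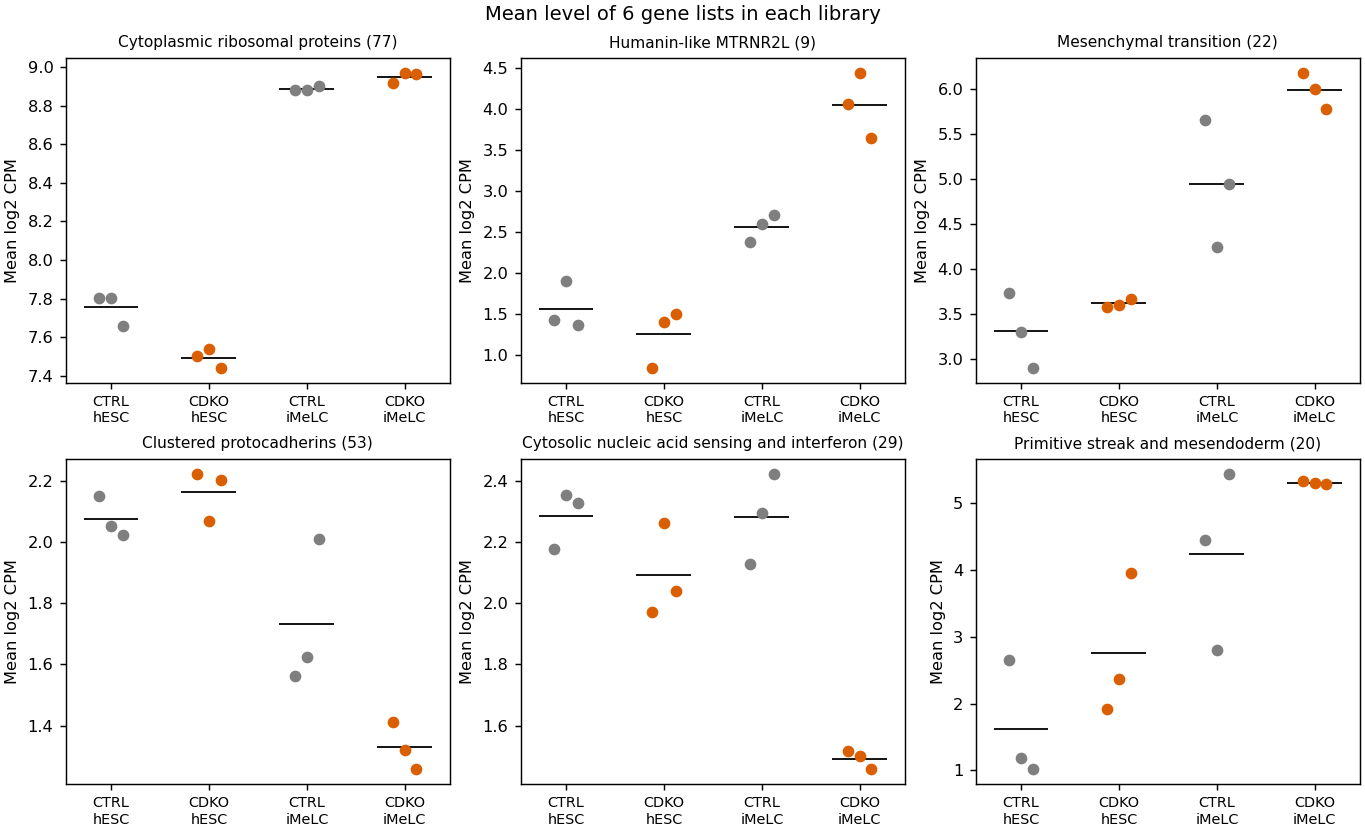
Mean log2 CPM of 6 gene lists in each library (points, 3 a group) with the group mean (line); grey is control, orange is knockout and the number tested is in brackets. Knockout libraries lie below controls in hESC and above them in iMeLC for ribosomal proteins, protocadherins stand apart between genotypes in iMeLC, and streak genes spread widely, with CDKO hESC 3 at 3.96 and CTRL1106 at 2.81.

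Seen from the other side, the interaction is the stage change in knockout lines less that in control lines. Over all genes the stage change had an SD of 1.44 in knockout and 1.17 in control lines. It was called for 59.8% of genes in knockout lines, 32.1% higher and 27.7% lower in iMeLC, and for 49.4% in control lines, 29.5% higher and 19.9% lower. The 3292 genes with an average rise of more than 1 on the log2 scale between stages and an adjusted p under 0.05 for it had a median interaction of 0.22, with 76.6% above 0, and the 3447 that fell by more than 1 at that threshold had a median of -0.49, with 23.3% above 0. The median log2 CPM of the rising genes was 5.14, 4.92 and 5.07 in CTRL1101, CTRL1106 and CTRL1109 and 5.29, 5.26 and 5.23 in CDKO1102, CDKO1105 and CDKO1312. That of the falling genes was -1.38, -0.94 and -1.12 in the controls and -1.85, -1.74 and -1.67 in the knockout lines. Knockout iMeLC libraries thus lay further from hESC than control iMeLC libraries in both sets. The sets were picked on the average of both stage changes. Given the wider spread of the stage change in knockout lines, such medians follow largely from that choice and add no separate support. The correlation over genes of each iMeLC library with the hESC mean of its genotype was 0.929, 0.947 and 0.932 in the controls and 0.912, 0.923 and 0.921 in the knockout lines, with CTRL1106 the closest to hESC. Genes are not independent replicates, and no test was made of these medians.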

How the data were processed

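Bulk RNA sequencing of 12 libraries was analysed. The values the authors deposited are raw counts of reads, whole numbers, with 1 row a gene symbol, in a table for hESC and another for iMeLC. Per the labels' protocols, total RNA went into SMARTer stranded libraries. GRCh38, cutadapt, FastQC and edgeR are named, per the submitters' processing notes; for aligner, counter, annotation and strandedness of counting, nothing is given in the sources used here. All columns were used.

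Both tables were joined on gene symbol. edgeR 4.0.16 under R 4.3.3 was run with TMM, filterByExpr by group (minimum count 10), 4 group means and the two-sided quasi-likelihood test, with Benjamini-Hochberg adjustment over all genes tested. CPM used TMM-scaled totals, and log2 CPM a prior count of 0.5. limma 3.58.1 (voom), DESeq2 1.42.0 and other settings were alternatives. Scripts were tested on simulated data.

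Gene lists, the question and the alternatives were chosen with earlier results of these data known. Named genes were TET1 to TET3, the 12 per direction with the largest called interaction (at least 1 CPM in a group, clone-based symbols left out) filled up by smallest p, and up to 4 members a list, by smallest p. Some genes that this rule names are not reported here. GENCODE 29 matched 19639 of 20262 genes (96.9%). The planned comparison of promoter CpG content is void, since the called genes TRIM4, MTRNR2L12 and PKP3 had no promoter in the table. Of all tested genes 64.1% had one. No 2 libraries of a group agreed within sampling noise (chi-square per gene 4.11 to 204.6), so none was taken for a library deposited a second time. That does not show separate cultures, and the 12 are counted as the labels list them. Counting intervals cover counting error only, and reads carry no molecular identifiers.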

Additional observations from a re-analysis of the deposited data

Results flagged for a closer look

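For 4 genes the knockout difference in iMeLC differed from that in hESC by the interaction test. The interaction was 7.94 on the log2 scale for TRIM4 (adjusted p = 1.23e-06, knockout libraries higher in 3 of 3 in iMeLC), 2.40 for ABCA1 (0.0381, 3 of 3), 2.09 for MTRNR2L12 (0.0381, 3 of 3) and -1.75 for PKP3 (0.0381, knockout libraries lower in 3 of 3 in iMeLC). TRIM4 was under the threshold in 21 of 22 alternatives, ABCA1 and MTRNR2L12 in 9 each and PKP3 in 8.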

How the results depend on the processing

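Against 4 called genes (3 higher, 1 lower), size factors by relative log expression gave 4 (3, 1). No filter on low counts gave 29 (13, 16), a filter passed in both tables separately gave 5 (3, 2), DESeq2 217 (160, 57), and thinning of iMeLC counts to hESC depth 6 (3, 3). limma-voom gave 1 (1, 0) and a robust prior 1 (1, 0), both TRIM4, and limma-voom with group weights 0 (0, 0), with 2124 genes at an unadjusted p under 0.05 and TRIM4 at an adjusted p of 0.0813. Leaving out 1 library gave 1 to 439 calls, 1 to 261 higher and 0 to 178 lower. The 439 came without CTRL1101, and 1 gene, TRIM4, was called without CTRL hESC 1, CTRL hESC 3, CTRL1109, CDKO1102 or CDKO1312. Of the 217 and the 439, 119 were shared (54.8% and 27.1%). As choices made after seeing the data, leaving out CDKO hESC 3 and CTRL1106 gave 3 (2, 1) and protein-coding genes alone 5 (3, 2). The cause of these shifts was not tested. TRIM4 lay between 7.59 and 8.19 over the 22 alternatives, ABCA1 between 2.12 and 2.60, MTRNR2L12 between 1.89 and 2.33 and PKP3 between -1.89 and -1.56. No paired analysis was possible because the hESC columns name no line.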

Other observations

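Genes of hypoxia response and glycolysis had 7 of 27 above 0 and a median of -0.33, with 4 lower and 1 higher at an unadjusted p under 0.05 and 0 called by edgeR or DESeq2. The 4 became 15 without CTRL1101, where edgeR called 4 lower and 1 higher, and 1 or 2 without CTRL hESC 1, CDKO hESC 1, CDKO hESC 2, CTRL1109, CDKO1102 or CDKO1105. Over all genes without CTRL1101, 3743 of 18813 had an unadjusted p under 0.05, and edgeR called 0.946% lower and 1.39% higher. The median was -0.52 without CTRL1101, -0.20 without CTRL hESC 1, -0.16 without CTRL1106 and -0.13 without CTRL1109. PFKFB3, an activator of glycolysis, averaged 40.8 and 41.2 CPM in CTRL and CDKO hESC and 95.1 and 54.0 CPM in CTRL and CDKO iMeLC (-0.83, SE 0.30, adjusted p = 0.358). The list's mean log2 CPM was 6.29, 7.06 and 7.08 in CTRL1101, CTRL1106 and CTRL1109 and 6.13 to 6.45 in CDKO iMeLC, so CTRL1101 lay within the range of the knockout lines. Genes of chromosome band 20q11.21, a region known to be gained in cultured stem cells, had 13 of 18 below 0 (median -0.24, -0.42 without CTRL1101 and -0.16 without CTRL1106), with mean log2 CPM of 4.68 in CTRL1101, 5.24 in CTRL1106, 5.05 in CTRL1109 and 4.57 to 4.81 in CDKO iMeLC. Integrated stress response genes had a median of -0.25 (-0.08 without CTRL1101, -0.12 without CTRL hESC 3 and -0.38 without CTRL1106), with ASNS, asparagine synthetase, at -1.34 (SE 0.37, adjusted p = 0.266).

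BMP targets and inhibitors had 18 of 24 above 0 (median 0.46, 0.30 without CTRL hESC 1, 0.21 without CTRL1106 and 0.74 without CTRL1101), and NOG, a secreted BMP antagonist, averaged 0.806 and 0.738 CPM in CTRL and CDKO hESC and 5.61 and 23.2 CPM in CTRL and CDKO iMeLC (2.18, SE 0.89, adjusted p = 0.398). Neural crest genes had 12 of 15 above 0 (median 0.67, 0.29 without CTRL hESC 1, 0.41 without CTRL1106, 1.03 without CDKO1312 and 1.41 without CTRL1101). Annexin, galectin and S100 genes had 15 of 20 above 0 (median 0.36, 0.23 without CTRL hESC 1, 0.17 without CTRL1106, 0.21 without CTRL1109 and 0.59 without CTRL1101) and 6 higher at an unadjusted p under 0.05 (3 without CTRL hESC 1 and 13 without CTRL1101), with ANXA6 at 0.74 (SE 0.21, adjusted p = 0.280). WNT inhibitor SFRP1 averaged 427 and 212 CPM in CTRL and CDKO hESC and 28.3 and 52.3 CPM in CTRL and CDKO iMeLC (1.90, SE 0.43, adjusted p = 0.208). TRDN, triadin of the calcium store, averaged 10.7 and 23.8 CPM in CTRL and CDKO hESC and 9.31 and 52.7 CPM in CTRL and CDKO iMeLC (1.35, SE 0.29, adjusted p = 0.205). It went against the median of its list, calcium, sodium and glutamate channels, where 8 of 30 were above 0 (median -0.28, -0.49 without CTRL1101). At an unadjusted p under 0.05 that list had 5 lower (9 without CTRL1101) and 3 higher. By edgeR 0 and by DESeq2 2 of the list were called, both higher, where DESeq2 called 0.79% of all genes higher.

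Non-coding genes of 5 annotated types, 4067 in all, had a median interaction of -0.37 with 28.3% above 0, against 0.03 over 15478 protein-coding genes. A gene could pass the filter on low counts through the group in which it was high. The part of the filter in this median was not tested. Their median knockout difference was 0.02 in hESC and -0.32 in iMeLC. They took 2.89% to 3.97% of counts in CTRL iMeLC and 2.46% to 2.74% in CDKO iMeLC, against 3.15% to 3.75% and 3.09% to 3.54% in CTRL and CDKO hESC. The annotated lincRNA gene AL627171.2 lies at the locus of RN7SL2, and the part of RN7SL2 reads in its counts was not tested. AL627171.2 alone took 1.21% to 1.79% of counts in CTRL iMeLC, 0.772% to 0.995% in CDKO iMeLC and 0.209% to 0.377% in hESC. Without it the share was 1.69%, 2.17% and 2.19% in CTRL1101, CTRL1106 and CTRL1109, 1.69% to 1.76% in CDKO iMeLC and 2.84% to 3.47% in hESC, so CTRL1101 was no longer above the knockout lines. By chromosome the median interaction lay between -0.09 and 0.04.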
